A study of Drosophila melanogaster with 12 samples.

Results

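The testis bromodomain genes tbrd-1 and tbrd-2 were followed in Drosophila melanogaster testes that stop at different steps of spermatogenesis. They were chosen by name, together with the general bromodomain gene fs(1)h, as probe sets carrying 1 of these 3 symbols in the annotation of the array. This gave 2 genes of the 11982 named on the array, each with 1 of the 18769 probe sets: 1624694_at for tbrd-1 and 1623992_at for tbrd-2. No probe set carried fs(1)h as its only symbol in the annotation used here, so that gene was not analysed here. The 402 probe sets with several symbols were not assigned to a gene. Another testis member of the family, tbrd-3 (probe set 1640010_at), is given beside them for comparison.

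Bromodomains are protein folds that bind acetylated lysines, above all on histone tails. Proteins of the BET family carry bromodomains in tandem and link acetylated chromatin to transcription, in mammals partly through the elongation kinase P-TEFb. In most fly cells this family is represented by Fs(1)h, known as a maternal regulator of homeotic genes. In testes it also has the relatives tBRD-1, tBRD-2 and tBRD-3. The protein tBRD-1 lies in spermatocyte nuclei together with testis forms of the TFIID subunits (testis TAFs), binds tBRD-2, and is needed for male fertility.

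RNA from whole testes of 1-day-old males, about 200 pairs in each sample, was hybridised to 12 Affymetrix arrays (Drosophila Genome 2.0), as 3 biological replicates of 4 genotypes. The aly testes (aly2/aly5P) are mutant for a component of tMAC, the Myb-MuvB relative found in testes, and the sa testes (sa1/sa2) for a testis TAF. Germ cells of both stop as primary spermatocytes. In bam testes (bam1/bamΔ86) the germ cells go on dividing and stay spermatogonia. The y,w testes, called yw here, carry germ cells of all stages through sperm. All mutants are whole-animal allele pairs, so germ line and somatic testis cells carry them alike, and an array holds RNA pooled from many males. Genotypes differ both in the mutated gene and in the germ cell stages they hold, and the design cannot separate these.

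The deposited values are linear intensities from 9.35 to 25799, with a median of 44.9 to 57.2 per array. Differences are on the scale log2(intensity + 16), which understates the change of dim transcripts, and precision is limited by having 3 arrays for a genotype. A probe set was called at a limma adjusted p (Benjamini-Hochberg, over all 18769 probe sets) under 0.05 with at least a 2-fold change, and "rose" or "fell" is used for calls only. As a check of labels, the gene sa measured 6878 to 7616 in aly, 96.2 to 112 in sa, 20.8 to 25.3 in bam and 1179 to 1518 in yw, so it was low in its own mutant. The gene bam measured 572 to 651 in aly, 287 to 313 in sa, 948.5 to 1174 in bam and 36.5 to 67.2 in yw. The gene aly measured 132 to 148 in aly, 107 to 185 in sa, 58.0 to 83.3 in bam and 83.7 to 89.4 in yw. Whether the bam and aly alleles lower their transcripts is not given in the sources used here, so these 2 genes check no label. The comparisons ask how transcripts differ between arrested spermatocytes and spermatogonia (against bam), between arrested and complete spermatogenesis (against yw), and between the 2 arrest points.

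The transcript of tbrd-1 measured 9315, 8298 and 8429 in the aly arrays and 1797, 2219.8 and 1987 in the sa arrays. It measured 80.3, 89.8 and 90.7 in the bam arrays and 1617, 1409 and 1716 in the yw arrays. No array of one genotype overlapped those of another, with aly highest, sa and yw next to each other, and bam lowest. How many of all probe sets separate in this way was not counted, but 73.2% differed among genotypes by limma's F test. The spread within a genotype was narrow, with a coefficient of variation of 6.37% in aly, 10.6% in sa, 6.60% in bam and 9.92% in yw.

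The transcript of tbrd-2 measured 8788, 6377 and 5806 in the aly arrays and 482, 785 and 621 in the sa arrays. It measured 21.9, 27.6 and 27.1 in the bam arrays and 841, 832 and 976 in the yw arrays. Here too no array overlapped those of another genotype, but yw lay above sa, and the bam arrays lay under the median probe set. The arrest mutants varied more than for tbrd-1, with a coefficient of variation of 22.6% in aly and 24.1% in sa, against 9.12% in yw.

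**Figure D1:**
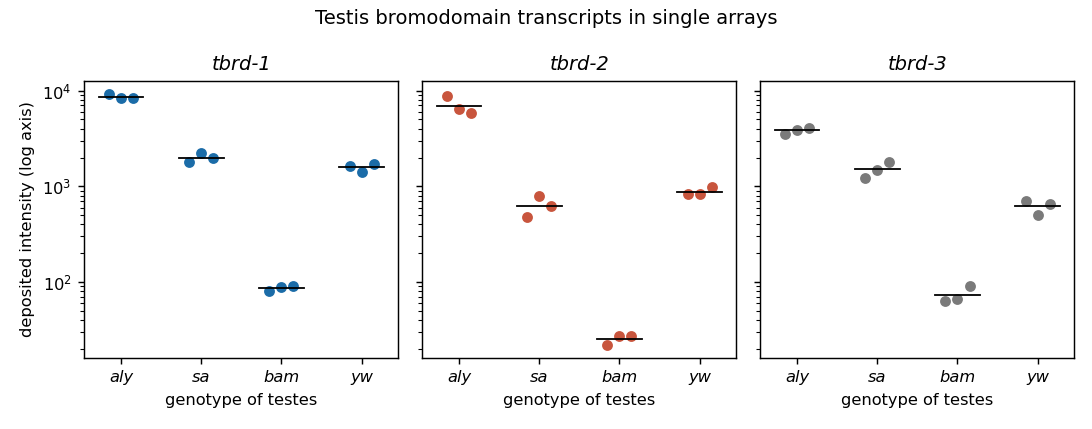
Deposited intensity (log axis) of tbrd-1, tbrd-2 and tbrd-3 in single arrays of aly, sa, bam and yw testes, with points for the 3 arrays per genotype and lines for their mean. All 3 transcripts were highest in aly and lowest in bam. On the deposited scale sa lay above yw for tbrd-1 and tbrd-3 but below yw for tbrd-2. Ribosomal centring put sa below yw for tbrd-1 as well, and called 12569 of 18769 probe sets lower in sa than in yw.

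Both genes differed among the 4 genotypes by limma's F test (adjusted p = 5.08e-12 for tbrd-1 and 2.24e-10 for tbrd-2). This was so for 73.2% of all probe sets, so the F test alone does not set them apart. Nor does the lack of overlap between genotypes, which was not counted over all probe sets. Of all probe sets, 1.54% had a higher F than tbrd-1 and 6.08% a higher F than tbrd-2.

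Against bam testes both genes rose in both arrest mutants. In aly, tbrd-1 averaged 8681 ± 553 against 86.9 ± 5.73 in bam (SD, n = 3 each), a log2 difference of 6.40 ± 0.10 (SE, limma adjusted p = 3.16e-12). For tbrd-2 the means were 6990 ± 1583 in aly and 25.5 ± 3.14 in bam, a log2 difference of 7.38 ± 0.18 (adjusted p = 1.08e-10). These differences stood 79th and 23rd from the top among the 18769 probe sets, of which 11.8% were called higher in aly than in bam. Under other settings tbrd-2 ran from 6.28 with a pseudocount of 64 to 8.03 with a pseudocount of 1, and it stayed called in each.

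In sa testes the same genes rose less above bam. The gene tbrd-1 averaged 2001 ± 212 in sa (log2 difference from bam 4.29 ± 0.10, adjusted p = 3.58e-11) and tbrd-2 averaged 629.7 ± 152 (3.93 ± 0.18, adjusted p = 1.05e-08). The background here was 14.6% of probe sets called higher, and the genes stood 561st and 676th from the top. The comparisons of aly and of sa with bam share the bam arrays. In whole testes, fewer cells of a type and less RNA per cell cannot be told apart.

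The direct comparison of the arrest mutants gave higher values in aly than in sa for both genes. The log2 difference of aly minus sa was 2.11 ± 0.10 for tbrd-1 (4.32-fold, adjusted p = 2.54e-08) and 3.44 ± 0.18 for tbrd-2 (10.9-fold, adjusted p = 8.47e-08). Only 5.84% of probe sets were called higher in aly than in sa (1096 higher and 1612 lower). The balance turned to 1580 higher and 1396 lower with each array centred on its median, and to 5815 higher and 3203 lower without the fold minimum. Among all probe sets tbrd-2 stood 9th from the top in this comparison and tbrd-1 stood 108th.

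Against yw testes, which hold the later stages as well, aly testes were higher and bam testes lower for both genes. In aly minus yw the log2 difference was 2.45 ± 0.10 for tbrd-1 (adjusted p = 2.41e-09) and 2.94 ± 0.18 for tbrd-2 (adjusted p = 1.01e-07), where 20.8% of probe sets were called higher. With arrays centred on 29 ribosomal protein genes, which were 1.21 higher on the log2 scale in aly than in yw, these differences were 1.24 and 1.73 and still called. In bam minus yw the differences were -3.95 ± 0.10 for tbrd-1 (adjusted p = 2.66e-11) and -4.43 ± 0.18 for tbrd-2 (adjusted p = 2.15e-09), where 13.5% of probe sets were called lower.

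The sa and yw testes were the neighbours in the order of levels, and neither gene was called between them. Of all probe sets, 27.1% were. The gene tbrd-1 averaged 2001 ± 212 in sa and 1581 ± 157 in yw, a log2 difference of 0.34 (95% interval 0.12 to 0.55, adjusted p = 0.013) that missed the 2-fold minimum. The gene tbrd-2 averaged 629.7 ± 152 in sa and 883 ± 80.6 in yw, a log2 difference of -0.50 (-0.91 to -0.09, adjusted p = 0.0384). The adjusted p was 0.0581 for tbrd-1 without sa replicate 2 and for tbrd-2 it was 0.144 without sa replicate 1, 0.0732 without sa replicate 3, and 0.0598, 0.0577 and 0.113 without yw replicates 1, 2 and 3. With ribosomal centring both were lower in sa, tbrd-1 at -0.93 and tbrd-2 at -1.76 and then called. That setting called 12569 of 18769 probe sets lower in sa than in yw, and the median difference was -1.31. The order of sa and yw thus turned with the scaling for tbrd-1, while tbrd-2 was lower in sa under each of the 4 scalings.

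**Figure D2:**
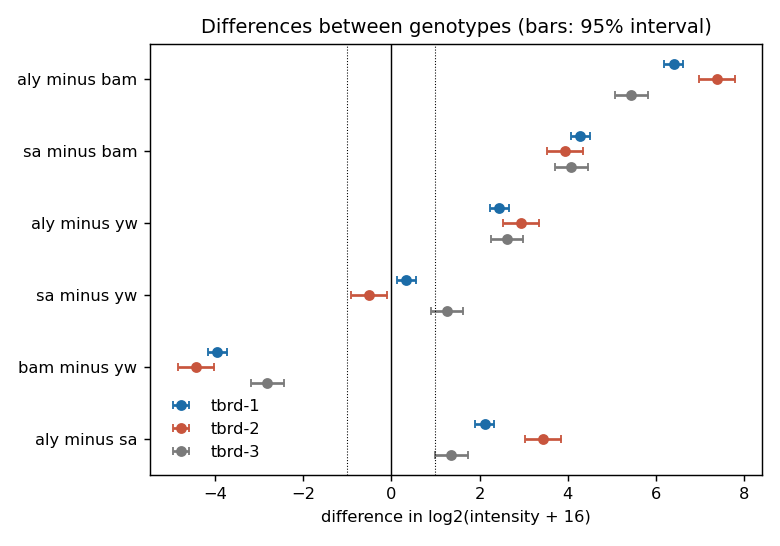
Difference in log2(intensity + 16) between 2 genotypes (horizontal axis) for tbrd-1, tbrd-2 and tbrd-3 in 6 comparisons, with bars for the 95% interval from limma and dotted lines at a 2-fold change. The largest differences were aly minus bam (6.40 for tbrd-1 and 7.38 for tbrd-2), and sa minus yw lay within the 2-fold lines for tbrd-1 and tbrd-2.

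The distance between tbrd-1 and tbrd-2 was not constant over the genotypes, although 3 against 3 arrays cannot pass a threshold of 0.05 by permutation. The level of one probe set says nothing about that of another, but the gap between them within an array can be compared across genotypes. The log2 value of tbrd-1 minus that of tbrd-2 was 0.08, 0.38 and 0.54 in the aly arrays, 1.86, 1.48 and 1.65 in sa, 1.34, 1.28 and 1.31 in bam and 0.93, 0.75 and 0.80 in yw. It was thus smaller by 1.33 in aly than in sa, by 0.49 in aly than in yw and by 0.98 in aly than in bam, and larger by 0.84 in sa than in yw. Arrays of different genotypes did not overlap in any of these comparisons (two-sided exact permutation p = 0.1 each, the smallest that 3 against 3 arrays allow, and 0.129 adjusted over 18 such tests). How many other gene pairs separate in this way was not measured, so the shift cannot be called particular to these genes. Since tbrd-2 was dim in bam, gaps that involve bam move with the pseudocount, and the sa minus bam change of 0.36 became -0.04 with a pseudocount of 1.

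**Figure D3:**
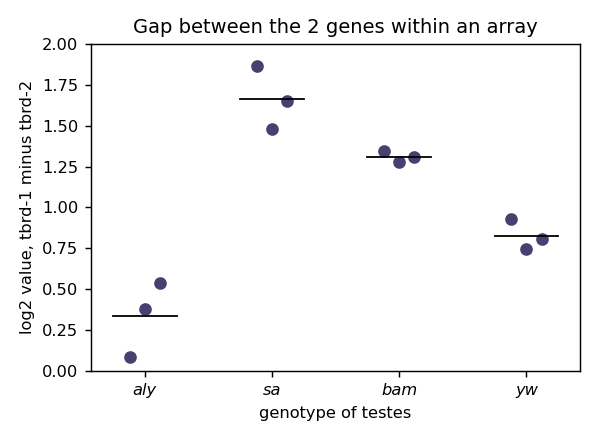
Log2 value of tbrd-1 minus that of tbrd-2 (vertical axis) in each array of aly, sa, bam and yw testes, with lines for the mean of 3 arrays. The gap was 0.08 to 0.54 in aly and 1.48 to 1.86 in sa, with bam and yw between them.

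The third testis gene, tbrd-3, measured 3565, 3911 and 4070 in aly, 1234, 1483 and 1796 in sa, 63.6, 66.3 and 91.5 in bam and 704, 499 and 648 in yw. On the deposited scale it had the order of tbrd-1, with aly above sa, yw and bam. Its log2 differences were 5.44 in aly minus bam (adjusted p = 6.02e-10), 4.08 in sa minus bam (adjusted p = 3.69e-09) and 1.36 in aly minus sa (adjusted p = 7.60e-05). Unlike the other two it was called between sa and yw (1.26, adjusted p = 7.07e-05), a call lost with ribosomal centring, where the difference was 0.001. The gap of tbrd-2 minus tbrd-3 was larger by 2.08 in aly than in sa (exact permutation p = 0.1), and the gap of tbrd-1 minus tbrd-3 was larger by 0.75 (exact permutation p = 0.1).

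The other genes with bromodomains moved both ways against bam. Of 16 listed, 12 had a named probe set, tbrd-3 among them. In aly minus bam 3 rose and 4 fell, with a median log2 difference of -0.35, beside 16.3% higher and 18.6% lower over all 11982 named genes, whose median was 0.04. In sa minus bam 2 rose and 6 fell (4 fell with ribosomal centring), with a median of -0.92, beside 20.5% higher and 20.6% lower over all named genes and a median of -0.09. Next to tbrd-3 the rising genes were Brd8, a subunit of the Tip60 acetyltransferase complex (1.76 in aly, adjusted p = 6.02e-05, and 1.91 in sa, adjusted p = 2.67e-05), and in aly also Taf1, the largest TFIID subunit (1.20, adjusted p = 5.08e-07). Against bam Taf1 fell in sa by 1.08 on the log2 scale (adjusted p = 9.87e-07), and in aly minus sa it rose (2.28, adjusted p = 5.24e-09).

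The largest falls against bam were those of bon, a transcriptional cofactor (-4.61 in aly, adjusted p = 9.32e-12, and -4.27 in sa, adjusted p = 1.20e-11), and BRWD3, a WD-repeat bromodomain protein (-2.28 in aly and -2.64 in sa). The remodelling ATPase brm was at -1.56 in aly and -2.24 in sa, and E(bx), the large subunit of the NURF remodeller, fell by 2.24 on the log2 scale in aly. The acetyltransferase nej, the fly CBP, averaged 895 ± 117 in aly, 283 ± 70.6 in sa, 875 ± 116 in bam and 123 ± 13.5 in yw. It was thus not called in aly minus bam (0.03, adjusted p = 0.909), fell in sa (-1.60, adjusted p = 1.42e-05) and rose in aly minus sa (1.63, adjusted p = 2.83e-05).

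The testis TAFs, which share spermatocyte nuclei with tBRD-1, moved against bam in the direction of the tbrd genes. All 5 rose in aly, with a median of 4.74, and all 5 in sa, with a median of 3.39 (4 with median centring). The gene sa, mutant in the sa testes, is among these and was at 1.655 in sa minus bam. Over all named genes 16.3% were higher in aly minus bam and 20.5% in sa minus bam. The gene can averaged 1802 ± 289 in aly, 924 ± 172 in sa, 16.6 ± 0.98 in bam and 528.5 ± 110 in yw, and its log2 difference was 5.79 in aly minus bam and 4.83 in sa minus bam. In aly minus sa, beside 7.88% of named genes higher and 11.9% lower, the gene sa (5.91), mutant in the other genotype, and mia (1.17) rose, Taf12L fell by 1.20 on the log2 scale, and can (0.95) and nht (0.54) did not pass the fold minimum. With median or ribosomal centring 3 rose and 1 fell.

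Against yw testes the bromodomain list was mostly higher, and with ribosomal centring less so. In aly minus yw 9 of 12 rose and 2 fell (6 and 2 with ribosomal centring), beside 28.2% of named genes higher and 15% lower. In sa minus yw 7 rose and 1 fell (2 and 3 with ribosomal centring), beside 23.9% higher and 12.9% lower. In bam minus yw 8 rose and 2 fell (6 and 2 with ribosomal centring), beside 34.3% higher and 18.6% lower. These shares hold for the values as deposited. Under ribosomal centring 399 of 18769 probe sets were called higher and 12569 lower in sa minus yw. In aly minus yw they were 1253 and 12049, and in bam minus yw 1530 and 12285. Of the 5 testis TAFs 5 rose in aly minus yw (3 with ribosomal centring), 3 rose and 1 fell in sa minus yw (1 and 1), the one that fell being the mutated gene sa itself (-3.52), and 4 fell in bam minus yw (5 with ribosomal and 3 with median centring), the direction in which tbrd-1 and tbrd-2 went.

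**Figure D4:**
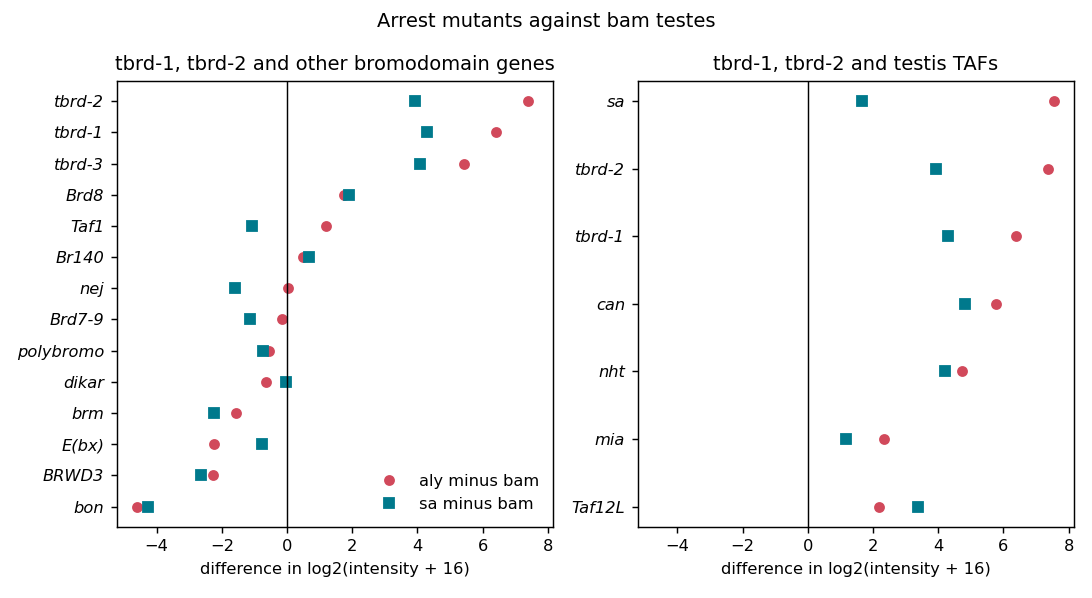
Difference in log2(intensity + 16) from bam (horizontal axis) in aly (circles) and sa (squares) for tbrd-1 and tbrd-2 beside 12 other bromodomain genes (left) and 5 testis TAFs (right). The 3 tbrd genes lie at 3.93 to 7.38, while the other bromodomain genes lie between -4.61 and 1.91.

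Among the tMAC genes 6 of 9 rose in aly minus bam (7 with ribosomal centring or quantile normalization), with a median of 3.19, and 5 of 9 in sa minus bam (7 with ribosomal centring), with a median of 1.67, beside 16.3% and 20.5% of all named genes. The gene aly, mutant in the aly testes, is among the 9. The zinc-finger subunit topi averaged 8263 ± 644 in aly, 575 ± 53.6 in sa, 71.2 ± 17.2 in bam and 1255 ± 108 in yw. Its log2 difference in aly minus sa was 3.81 (adjusted p = 2.71e-09), beside 3.44 for tbrd-2. The subunits wuc (5.77 in aly minus bam and 5.18 in sa minus bam) and comr (4.62 and 3.72) rose in both mutants. Neither was called between the mutants (0.58 and 0.90 in aly minus sa). In aly minus sa 3 of 9 rose, topi, vis (2.09) and tomb (1.27), and 0 fell (4 rose with median centring). Over all named genes 7.88% were higher and 11.9% lower in aly minus sa.

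P-TEFb, the kinase that BET proteins are known to bring to genes in mammals, was followed through its subunits Cdk9 and CycT. Cdk9 averaged 4643 ± 171 in aly, 2775 ± 324 in sa, 2694 ± 166 in bam and 559 ± 86.5 in yw, and was not called against bam in either mutant (0.78 and 0.04). CycT averaged 414 ± 51.0 in aly, 2051 ± 871 in sa, 278 ± 40.8 in bam and 1185 ± 196 in yw, so it rose in sa minus bam (2.72, adjusted p = 9.72e-06) and fell in aly minus sa by 2.17 on the log2 scale (adjusted p = 1.30e-04). Of 9 measured P-TEFb and elongation genes, 2 rose and 1 fell in aly minus bam (4 and 0 with ribosomal centring, 1 and 1 with quantile normalization or median centring), with a median of 0.58, and 4 rose in sa minus bam (5 with ribosomal centring), with a median of 0.83. Beside 16.3% of all named genes higher and 18.6% lower in aly minus bam, and 20.5% higher in sa minus bam, the count in aly is near the background. In both, lilli, a scaffold of the super elongation complex, had the largest difference (2.52 in aly and 4.18 in sa).

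Of 12 measured general TAFs and Tbp, the subunits of TFIID used in most cells, 3 rose and 3 fell in aly minus bam (2 fell with ribosomal centring), near the 16.3% higher and 18.6% lower of all named genes. In sa minus bam 5 fell and 0 rose (6 fell with median centring, and 2 rose and 3 fell with ribosomal centring), beside 20.5% of named genes higher and 20.6% lower. Taf4 fell in both (-3.72 in aly and -3.61 in sa), to 47.5 ± 9.53 in aly and 52.8 ± 15.7 in sa, against 815 ± 83.3 in bam.

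By likeness of profile over the 12 arrays, measured as the root mean square difference of log2 values after each gene was centred on its own mean, the nearest of the 11982 named genes to tbrd-1 were CG17440 (0.16), CG31848 (0.24), ms(3)76Ba (0.28), CG9777 (0.33) and Zmynd10 (0.34). The median named gene lay at 2.39. The nearest to tbrd-2 were CG7907 (0.25), CG17440 (0.45), Zmynd10 (0.45), topi (0.47) and tbrd-1 itself (0.52). The gene CG17440 averaged 4118 ± 211 in aly, 787 ± 80.5 in sa, 23.8 ± 2.57 in bam and 674 ± 123 in yw. The gene CG7907 averaged 6902 ± 539 in aly, 471 ± 37.2 in sa, 16.6 ± 1.69 in bam and 668 ± 108 in yw. From tbrd-1, tbrd-3 and tbrd-2 were the 16th and 18th nearest genes. The 12 arrays fall into 4 genotypes, so this likeness describes the order of genotypes more than the arrays within them.

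Markers of germ line stages and of other cells moved with these comparisons, and their part in the results was not tested. Beside the counts against bam stand 16.3% of all named genes higher and 18.6% lower in aly, and 20.5% higher and 20.6% lower in sa. Spermatocyte and spermatid markers, a list that holds can, sa and aly as well, summed to 50840 to 53120 in aly and 40570 to 49980 in sa, against 575 to 617 in bam and 63080 to 70600 in yw. Of its 10 genes 8 rose in aly minus bam (9 with ribosomal centring or quantile normalization) and 9 in sa minus bam (all 10 with ribosomal centring), the latter including the gene sa, mutant there. Germline markers of early stages include the gene bam, mutant in the reference testes. They fell in 5 of 8 cases in aly and 6 of 8 in sa (7 with median centring in sa). Testis muscle markers fell in 7 of 8 cases in both (1 rose in sa, 0 with quantile normalization), summing to 1772 to 2509 in aly and 2112 to 3153 in sa, against 11890 to 13860 in bam. Of 6 hub and cyst markers 2 fell in each (1 in aly with ribosomal centring or quantile normalization). The hub ligand upd1 averaged 20.4 to 22.1 in every genotype, under the array medians, which is too dim to show whether hub content differed. In bam minus yw 9 of 10 spermatocyte and spermatid markers fell (all 10 with ribosomal centring), 7 of 8 germline markers rose (6 with ribosomal centring), and 7 of 8 muscle markers rose and 1 fell (3 and 1 with ribosomal centring), beside 34.3% of named genes higher and 18.6% lower. That background is for the values as deposited, while ribosomal centring called 1530 of 18769 probe sets higher and 12285 lower. As deposited, the gene bam itself (3.93) was among the germline markers that rose in bam minus yw.

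Accessory gland markers, from a tissue next to the testis, summed to 6177 to 8949 in aly, 10530 to 23150 in sa, 22540 to 95720 in bam and 11780 to 69650 in yw. Of 11 measured, 10 fell in aly minus bam and 1 in sa minus bam (2 with quantile normalization, 5 with median centring). Over all named genes 18.6% were lower in aly minus bam and 20.6% in sa minus bam. In aly minus yw 4 of 11 fell, beside 15% of named genes lower. With ribosomal centring all 11 were called lower there, as were 12049 of 18769 probe sets. The sum was uneven within bam and within yw. In bam it was 95720, 47160 and 22540 in replicates 1, 2 and 3, where tbrd-1 measured 80.3, 89.8 and 90.7 and tbrd-2 measured 21.9, 27.6 and 27.1. Without bam replicate 1, tbrd-1 differed by 6.35 and tbrd-2 by 7.31 in aly minus bam, and by 4.24 and 3.87 in sa minus bam. In yw the sum was 69650 in replicate 2 and 11780 in replicate 3. In those arrays tbrd-1 measured 1409 and 1716 and tbrd-2 measured 832 and 976. Without yw replicate 2, tbrd-1 differed by 2.37 and tbrd-2 by 2.90 in aly minus yw.

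**Figure D5:**
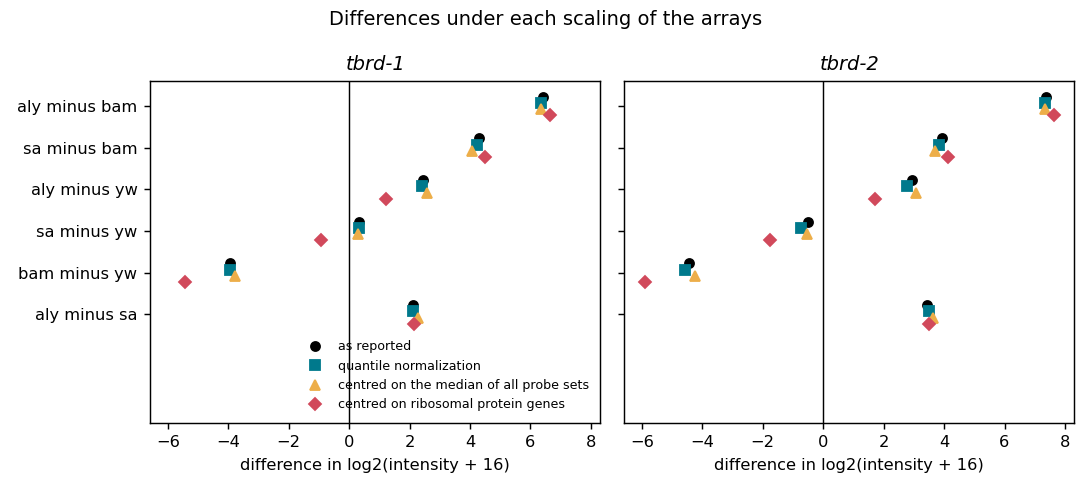
Difference in log2(intensity + 16) for tbrd-1 (left) and tbrd-2 (right) in 6 comparisons as deposited, after quantile normalization, and with arrays centred on the median of all probe sets or on ribosomal protein genes. Differences from yw shift to lower values with ribosomal centring (aly minus yw to 1.24 and 1.73), while those of aly and sa from bam and between aly and sa kept their direction and call.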

How the data were processed

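The authors deposited 1 table of linear intensities for the 12 arrays. The submitters' processing notes name MAS5, RMA and limma, and whether MAS5 or RMA made these intensities is not settled, so no background or normalization step was repeated. Of 18952 probe sets 183 controls were left out. Of the 18769 tested, 13647 had 1 symbol in the array annotation, 402 had several and 4720 were unnamed here; 13544 matched RefSeq (Release 6). A named gene is represented by its brightest probe set. Values were taken as log2(intensity + 16) and fitted with limma 3.58.1 (R 4.3.3) in 1 model of all 12 arrays, without covariates, with Benjamini-Hochberg adjustment over all probe sets. Standard errors and 95% intervals are limma's. The test was checked on simulated data with normal noise of the fitted spread, at adjusted p under 0.05 without the fold minimum. Each simulation held 18769 probe sets, of which 100 were changed 2-fold, 100 were changed 4-fold and the rest were unchanged. In each comparison the test passed 87 to 95 of the 100 changed 2-fold and 9 to 17 of all unchanged ones. Far more probe sets differed in the data, so these rates need not hold there. The call rule with the fold minimum was not checked in this way. Gaps between genes were compared by a two-sided exact permutation test. No sequence is shown, since none was given for these genes.

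Members and lists were chosen with earlier results of these data known. Named are every member probe set, up to 4 genes of each list with the largest differences, tbrd-3, can, sa, Cdk9, CycT, nej, trx and ash1 (which had no named probe set) in any case, the 5 genes nearest in profile, and the genes of the genotypes. Alternatives covered the pseudocount, scaling, dim probe sets (mean intensity under 50), probe sets per gene, array weights, eBayes settings, arrays in the fit, the fold minimum, each array left out, and the replicate number.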

Additional observations from a re-analysis of the deposited data

How the results depend on the processing

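Of the differences between genotypes for tbrd-1 and tbrd-2 under alternatives, 226 kept their direction and call and 2 did not, the fold minimum not being among these alternatives. Without it both sa minus yw differences would be called in the main fit of all 12 arrays (limma adjusted p = 0.013 for tbrd-1 and 0.0384 for tbrd-2). Neither would be in a fit of only the 6 arrays compared (limma adjusted p = 0.051 for tbrd-1 and 0.065 for tbrd-2). The 2 exceptions came with ribosomal centring in sa minus yw, where tbrd-1 was -0.925 and tbrd-2 was -1.762 and called. That centring gave 12968 calls in sa minus yw, 13302 in aly minus yw and 13815 in bam minus yw, of which 3.08%, 9.42% and 11.1% were higher, against 64.9%, 65.3% and 66.3% of the 5082, 5972 and 7528 calls as deposited. Without a fold minimum more probe sets qualify. There were then 10610 calls in sa minus bam, 8743 in aly minus bam and 10599 in sa minus yw. In aly minus yw there were 9197 and in aly minus sa 9018 (5815 higher and 3203 lower). The share of higher calls was 54.3% in sa minus yw, against 64.9% with the fold minimum. In aly minus sa it was 64.5%, against 40.5%. The change of the gap between tbrd-1 and tbrd-2 with a pseudocount of 1 and of 64 was -0.044 and 0.839 in sa minus bam, -1.399 and -0.422 in aly minus bam, and 0.895 and -0.042 in bam minus yw. With a replicate block the counts of calls were 5810 in sa minus bam, 5024 in aly minus bam, 5078 in sa minus yw, 5967 in aly minus yw, 7524 in bam minus yw and 2699 in aly minus sa. The block changed no call of either gene (limma adjusted p = 0.0635 for tbrd-2 in sa minus yw, which was not called in either fit). Same-numbered arrays of different genotypes deviated together no more often than differently numbered ones. A correlation over 0.1 was seen in 4 of 18 same-numbered pairs (highest 0.402) and 12 of 36 differently numbered pairs (highest 0.601). The numbers were thus not taken to pair samples. Leaving out 1 array at a time, sa minus yw ran from 0.257 to 0.411 for tbrd-1 and from -0.67 to -0.327 for tbrd-2. The dim bam values of tbrd-2 limit how far its differences from bam can be read as folds.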

Other observations

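Some genes listed as histone acetyltransferases or as deacetylases also differed between the arrest mutants. Of 8 measured histone acetyltransferase genes 6 rose in aly minus sa and 0 fell, under each of the 4 scalings run, with a median log2 difference of 1.23, beside 7.88% of named genes higher and a median of 0.10. Among those that rose, nej and Taf1 are the same probe sets already given with the bromodomain genes. Hat1, which acetylates new histones, averaged 584.5 ± 63.6 in aly, 189 ± 12.5 in sa, 1348 ± 318 in bam and 1037 ± 210 in yw. Tip60 averaged 1290 ± 133 in aly, 583 ± 68.4 in sa, 353 ± 43.6 in bam and 127 ± 29.4 in yw, and chm averaged 925.5 ± 129 in aly, 428 ± 58.2 in sa, 153 ± 26.1 in bam and 60.5 ± 0.861 in yw. Against bam 3 rose and 2 fell in aly (4 and 1 with ribosomal centring), and 1 rose and 4 fell in sa (1 and 3).

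Of 6 deacetylase genes 2 rose in aly minus sa and 0 fell, with a median of 0.19, beside 7.88% of named genes higher and 11.9% lower. HDAC1 averaged 604 ± 20.5 in aly, 185 ± 20.3 in sa, 3561 ± 207 in bam and 106 ± 6.58 in yw, and it fell against bam in both arrest mutants (-2.53 in aly and -4.16 in sa). Sirt2 rose against bam in both (2.83 in aly and 2.81 in sa). In all, 2 rose and 2 fell in aly minus bam, and 1 rose and 3 fell in sa minus bam (2 fell with ribosomal centring). Over all named genes 16.3% were higher and 18.6% lower in aly minus bam, and 20.5% higher and 20.6% lower in sa minus bam. Of 4 measured homeotic and trithorax genes that fs(1)h is known to act with, 2 fell in each mutant against bam (1 in aly with ribosomal centring), beside the same 18.6% and 20.6% of named genes lower. The histone methyltransferase gene trx averaged 29.6 ± 1.70 in aly, 33.4 ± 9.30 in sa, 605 ± 15.6 in bam and 26.0 ± 6.05 in yw.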
